A study of Mus musculus with 4 samples.

Results

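KDM5C promoter peaks in CpG-poor sequence are binding sites near the start of a protein-coding gene whose own DNA falls short of the usual composition of a CpG island. They were taken from the wild-type (WT) peak list as peaks on chromosomes 1 to 19 or X whose midpoint lay within 1 kb of the transcription start site (TSS) of any annotated transcript of a protein-coding gene, and whose sequence had a ratio of observed to expected CpG below 0.6 or a GC content below 50%. These limits were met by 470 peaks, which is 9.28% of the 5064 promoter peaks (exact 95% interval 8.5 to 10.1%) and 6.8% of the 6916 WT peaks on assembled chromosomes. The other 4594 promoter peaks had a ratio of at least 0.6 and a GC content of at least 50%, and are called CpG-rich. Peaks were named for the protein-coding gene with the TSS nearest to the midpoint, which gave 466 different genes. Only Lin28b, Sfi1, Ccdc40 and Iqgap2 were nearest to more than 1 CpG-poor promoter peak.

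The study profiled KDM5C by ChIP-Seq, the sequencing of DNA recovered with an antibody from sonicated chromatin, in epiblast-like cells (EpiLCs) of the mouse, differentiated from embryonic stem cells of a male (strain label C57BL/6J). All cells carried XΔTsix, a single X chromosome with a truncated Tsix, the antisense repressor of Xist, and differed in Kdm5c, which was intact in WT and deleted in knockout (KO) cells at day 2. The series holds 4 samples, an anti-KDM5C immunoprecipitate and an input for each genotype, and 1 peak list per genotype. By the study's methods the WT cells came from independent lines and the KO cells were a single sample, while the series text speaks of technical duplicates. The protocol in the labels ends at the EpiLC stage. The study's methods and reporting form place the ChIP cells at 2 days beyond that stage. The sources differ, so the stage is not settled here. For the strain, the study's methods and reporting form name backgrounds other than the label's, so the strain is not settled either. By the study, the deleted Kdm5c allele lacks the exons of the demethylase domain and yields hardly any protein. Peak lists hold no expression, so neither the identity of the cells nor the absence of those exons from Kdm5c RNA was checked. With a single list per genotype, every value below is a description without a replicate error or a test. Intervals are over peaks of that list and cover counting error only.

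Most mammalian CpG dinucleotides are methylated and have been lost by mutation, and CpG islands are the stretches near promoters that kept them because they stay unmethylated. Promoters outside such islands often belong to genes used in few tissues, and their CpGs are often methylated in cells that do not use the gene. KDM5C removes methyl groups from trimethylated and dimethylated H3K4, marks of promoters, and is known as a repressor of germ line genes in somatic cells.

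The 200 bp centred on the summit, the point of highest signal in a peak, are given here for the 6 CpG-poor promoter peaks of highest score. They are followed by the CpG-poor promoter peak with the lowest CpG ratio (Mc1r, the melanocortin receptor of pigment cells) and, for contrast, by the CpG-rich promoter peak of highest score (Gm4969). The Gm4969 peak also overlapped a peak of the KO list. Sequences are from the mm9 assembly, read 5′ to 3′ on the strand of the named gene, and capitals mark CpG dinucleotides.
Pus7l (chr15:94373622-94373821, minus strand): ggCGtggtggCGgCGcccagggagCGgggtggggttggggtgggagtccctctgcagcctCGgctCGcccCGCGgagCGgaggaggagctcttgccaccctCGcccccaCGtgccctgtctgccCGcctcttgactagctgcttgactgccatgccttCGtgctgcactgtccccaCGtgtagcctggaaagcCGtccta
Spata22 (chr11:73143190-73143389, plus strand): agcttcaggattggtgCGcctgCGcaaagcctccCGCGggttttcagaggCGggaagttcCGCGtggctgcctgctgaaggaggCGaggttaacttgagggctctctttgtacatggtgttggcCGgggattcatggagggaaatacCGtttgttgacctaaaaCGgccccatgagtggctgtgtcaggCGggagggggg
Tex19.1 (chr11:121007163-121007362, plus strand): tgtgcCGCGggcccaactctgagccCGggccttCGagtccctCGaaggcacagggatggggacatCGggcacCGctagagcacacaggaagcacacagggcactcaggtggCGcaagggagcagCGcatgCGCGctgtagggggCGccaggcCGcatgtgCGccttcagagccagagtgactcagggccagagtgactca
Mrpl23 (chr7:149719173-149719372, plus strand): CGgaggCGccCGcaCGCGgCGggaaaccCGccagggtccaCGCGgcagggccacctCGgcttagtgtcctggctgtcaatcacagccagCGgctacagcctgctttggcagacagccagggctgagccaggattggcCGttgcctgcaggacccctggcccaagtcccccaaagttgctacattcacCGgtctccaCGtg
Prr19 (chr7:26086279-26086478, plus strand): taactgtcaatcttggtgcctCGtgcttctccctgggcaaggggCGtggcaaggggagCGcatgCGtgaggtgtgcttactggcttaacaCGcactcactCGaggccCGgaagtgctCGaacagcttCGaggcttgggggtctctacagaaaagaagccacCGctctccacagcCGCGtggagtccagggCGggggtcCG
Syce1 (chr7:147973664-147973863, minus strand): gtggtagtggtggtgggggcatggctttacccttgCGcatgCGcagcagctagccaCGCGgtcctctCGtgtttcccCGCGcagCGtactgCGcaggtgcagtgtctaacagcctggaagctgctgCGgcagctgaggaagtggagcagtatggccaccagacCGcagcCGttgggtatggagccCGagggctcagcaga
Mc1r (chr8:125930786-125930985, plus strand): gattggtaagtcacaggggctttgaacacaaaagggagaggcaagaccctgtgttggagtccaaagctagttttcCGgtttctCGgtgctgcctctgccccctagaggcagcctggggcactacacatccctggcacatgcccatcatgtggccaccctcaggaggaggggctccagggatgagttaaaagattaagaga
Gm4969 (chr7:19703662-19703861, minus strand): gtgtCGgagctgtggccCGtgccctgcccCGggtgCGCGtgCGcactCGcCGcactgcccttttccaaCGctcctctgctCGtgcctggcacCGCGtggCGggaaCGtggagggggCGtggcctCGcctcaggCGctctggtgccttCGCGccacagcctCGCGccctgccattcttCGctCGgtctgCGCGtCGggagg

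Each of the first 6 sequences held between 12 and 15 CpGs in 200 bp, against 2 for Mc1r and 26 for Gm4969. The ratio of these summit windows ran from 0.612 for Pus7l to 0.735 for Prr19, above the limit of 0.6 that the whole peaks failed. CpGs were thus denser at the summits of these 6 peaks than over their full width. The Mc1r window had a ratio of 0.133. The Pus7l window held the palindromic E-box CACGTG at bases 108 and 175, and the Mrpl23 window held it at base 195.

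**Figure D1:**
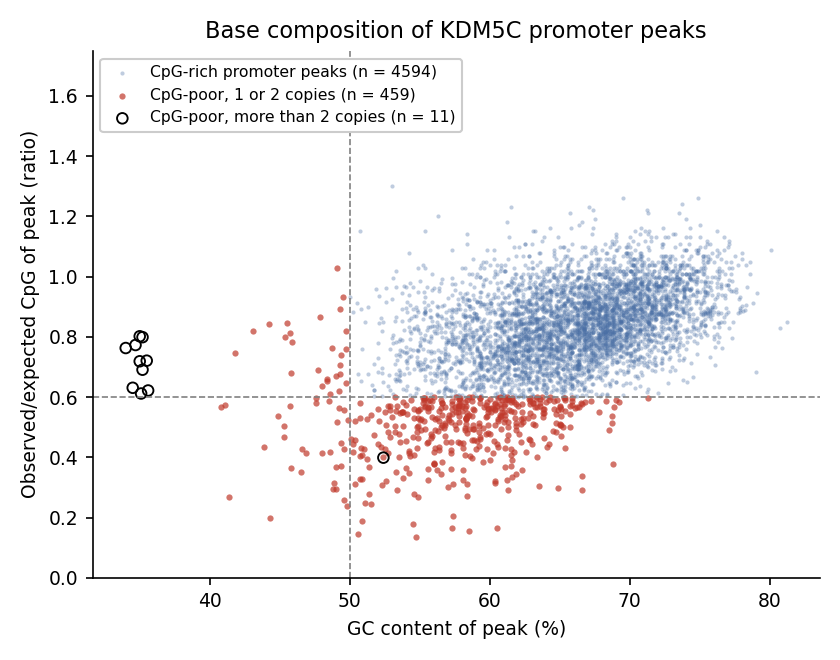
Each point is a WT promoter peak, placed by its GC content in percent (horizontal) and its ratio of observed to expected CpG (vertical), with dashed lines at the limits of 50% and 0.6. Most of the 470 CpG-poor peaks lie just below the ratio limit, and 10 peaks of repeated sequence stand apart at GC contents near 35%.

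What placed peaks in this set was mainly the CpG ratio, and for most of them the ratio was close to the limit. Of the 470 peaks, 403 failed the ratio alone, 36 the GC content alone and 31 both. The ratio lay between 0.5 and 0.6 in 255 peaks and below 0.4 in 70. Just inside the ratio limit were the peaks of Sbf1 and Wbp2nl with ratios that round to 0.6, and just outside it those of Zdhhc14, Lefty1 and D9Ertd402e with 0.6 to 0.601. Just inside the GC limit were Qtrtd1, Nup54 and Alpk1, each at 49.7%, and just outside it Rbbp5 at 50%, Kdm3a at 50.2% and Csnk2a1 at 50.5%. The lowest ratios after Mc1r (0.135 over the whole peak) belonged to Pla2g6, a phospholipase (0.145), Sept9, a septin (0.157), Sfi1, a centrosomal protein (0.165), and Ptk7, a receptor-like pseudokinase (0.167). These 5 peaks had low scores, between 20 and 46. The lowest GC contents were those of the predicted genes Gm10801 (34%), Gm10720 (34.5%), Gm10716 (34.7%), Gm10718 (35%) and Gm10800 (35%).

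KDM5C was found at few CpG-poor promoters. When promoters were classed by the 500 bp on either side of the 5′ end of the gene instead of by the peak, 680 of 12471 CpG-poor promoters had a WT peak with its midpoint within 1 kb (5.45%, exact 95% interval 5.06 to 5.87%). Among CpG-rich promoters the count was 4244 of 9879 (43.0%, interval 42.0 to 43.9%). These counts take WT peaks of any composition. When peaks were again classed by their own sequence, the signal was lower in CpG-poor ones. The score, which is 10 times the −log10 of the q-value, had a median of 61 (95% interval of the median 59 to 68, quartiles 37 and 109) in CpG-poor and of 90 (87 to 93) in CpG-rich promoter peaks. Peaks away from promoters had a median score of 73. The median fold enrichment over input was 3.39 (3.28 to 3.51) in CpG-poor and 3.77 (3.73 to 3.83) in CpG-rich promoter peaks. Of the 470 peaks, 174 reached the median score of the WT list, 82.

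CpG-poor peaks thinned out towards the top of the list. They made up 83 of the 506 promoter peaks of lowest score (16.4%, interval 13.3 to 19.9%) and 18 of the 506 of highest score (3.56%, 2.12 to 5.56%). The first of them, Pus7l, ranked 83 among all promoter peaks, and 3 were among the first 100. Among CpG-poor peaks with a ratio below 0.6, the score rose with the ratio, which the rule itself used. The median score was 47 in the 24 peaks with a ratio below 0.3, 53.5 between 0.3 and 0.4, 64 between 0.4 and 0.5 and 65 between 0.5 and 0.6, and it was 82 in the 533 CpG-rich peaks with a ratio between 0.6 and 0.7. CpG-poor peaks with a ratio of 0.6 or more failed the GC content alone. Their median score was 53.5 at 0.6 to 0.7 (n = 14) and 102 at 0.7 to 0.8 (n = 12). At 0.8 to 0.9 it was 69 (n = 8). Above that lay 1 peak at 0.9 to 1.0 (104) and 1 beyond (178).

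**Figure D2:**
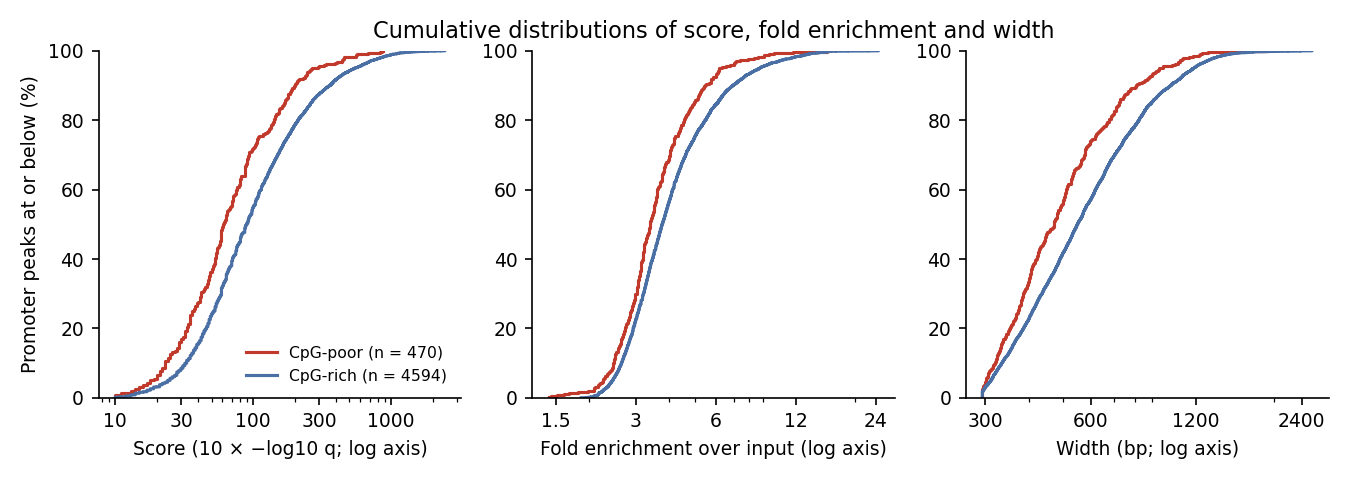
Cumulative share of promoter peaks in percent against score, fold enrichment over input and width in bp, each on a log axis, for 470 CpG-poor (red) and 4594 CpG-rich (blue) promoter peaks. The red curves lie to the left of the blue ones through most of each range, with medians of 61 against 90, 3.39 against 3.77 and 470.5 against 550 bp.

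CpG-poor promoter peaks were narrower. Their median width was 470.5 bp (443 to 489, quartiles 371.2 and 616.5 bp), against 550 bp (541 to 560) for CpG-rich promoter peaks and 485 bp for peaks away from promoters. Both promoter classes began at 294 bp, and 21 CpG-poor peaks (4.47%, 2.79 to 6.75%) exceeded 1 kb, against 482 CpG-rich ones (10.5%, 9.62 to 11.4%). Wide peaks had high scores in both classes, so widths were also compared within bands of score. Bands exclude their upper end. For scores of 50 to 100 the median widths were 422 bp (CpG-poor, n = 166) and 472 bp (CpG-rich, n = 1432). For scores of 100 to 200 they were 555 bp (n = 85) and 629 bp (n = 1090), and at 400 or more 725 bp (n = 16) and 867.5 bp (n = 380). CpG-poor peaks were narrower in each of the 5 bands, by least below a score of 50 (405 and 421 bp). Fold enrichment differed little within bands, with medians of 3.49 and 3.43 at scores of 50 to 100 and of 8.98 and 9.32 at 400 or more. Score and fold enrichment both compare the same signal with input, so this follows in part from the bands.

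The widest CpG-poor promoter peaks were those of Gm10722 (1885 bp), St6galnac3, a sialyltransferase (1454 bp), Gm10720 (1297 bp), Ppp1r3b, a glycogen-targeting subunit of protein phosphatase (1247 bp), and Tmem191c (1233 bp). Their scores were moderate, from 93 for Gm10720 to 177 for St6galnac3. Gm10722 and Gm10720 are predicted genes in repeated sequence, described with the KO overlaps.

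Taken as a whole set, the summits of CpG-poor promoter peaks lay farther from the TSS and without the downstream shift of CpG-rich ones. The median distance was 221 bp (196 to 242) against 166 bp (161 to 172). Counted along the gene, the median summit lay at +9 bp (-19 to 44) in CpG-poor peaks and at +83 bp (76 to 90) in CpG-rich ones. The summit was downstream of the TSS in 238 of 470 CpG-poor peaks (50.6%, 46.0 to 55.2%) and in 2967 of 4594 CpG-rich peaks (64.6%, 63.2 to 66.0%). The peak itself covered the TSS in 243 CpG-poor peaks (51.7%, 47.1 to 56.3%) and in 3377 CpG-rich ones (73.5%, 72.2 to 74.8%). Within the peak the summit was central in both classes, with medians at 50.5% and 48.9% of the width.

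By annotation, the summit fell outside genes in 143 CpG-poor peaks (30.4%, 26.3 to 34.8%), in an intron of a protein-coding gene in 139 (29.6%), in a non-coding part of an exon of such a gene in 96 (20.4%) and in coding sequence in 76 (16.2%). The remaining summits lay in exons (8) or introns (8) of other gene types. In CpG-rich peaks, summits outside genes were fewer (19.5%, 18.3 to 20.6%) and those in coding sequence more frequent (25.8%, 24.6 to 27.1%). A coding gene on the opposite strand started within 1 kb of the TSS for 23 CpG-poor peaks (4.89%, 3.13 to 7.25%) and for 489 CpG-rich ones (10.6%, 9.77 to 11.6%).

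The set divided into peaks at CpG-poor and at CpG-rich start sites. The sequence from 500 bp before to 500 bp after the nearest TSS was itself CpG-poor for 309 of the 470 peaks and CpG-rich for 161 (34.3%). The 309 peaks at a CpG-poor TSS had their summits at a median of +44 bp (16 to 78) and 162 bp from the TSS in either direction (133 to 185). They had a median score of 65 (59 to 74) and a median width of 489 bp (460 to 513), and 204 of them covered the TSS (66.0%, 60.4 to 71.3%). The 161 peaks at a CpG-rich TSS lay mostly upstream, with a median summit at -214 bp (-267 to -42) and a median distance of 373 bp (311 to 434). Their median score was 55 (49 to 64) and their median width 428 bp (403 to 470), and 39 of them covered the TSS (24.2%, 17.8 to 31.6%). Distance and coverage here follow in part from the classes, since a CpG-poor peak near a CpG-rich TSS tends to lie off it.

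With the class of the TSS held fixed, the contrast between CpG-poor and CpG-rich peaks changed. At a CpG-poor TSS, the 388 CpG-rich peaks had a median width of 453 bp (438 to 484), a median score of 75 (67 to 82) and a median summit distance of 162 bp (137 to 197), so that CpG-poor peaks there were neither narrower nor farther from the TSS. Along the gene, the median summit there lay at +102 bp (80 to 121) in CpG-rich and at +44 bp in CpG-poor peaks. It was downstream in 71.6% (66.9 to 76.1%) and 57.0% (51.2 to 62.6%) of peaks, respectively. At a CpG-rich TSS, the 4206 CpG-rich peaks had a median width of 561 bp (550 to 570), a median score of 92 (88 to 95) and a median distance of 167 bp (161 to 173). The shorter width and larger distance of the whole set were seen among peaks at CpG-rich start sites, where the distance follows in part from how the classes were set. Whether this mixture of start sites accounts for all of the difference was not tested.

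**Figure D3:**
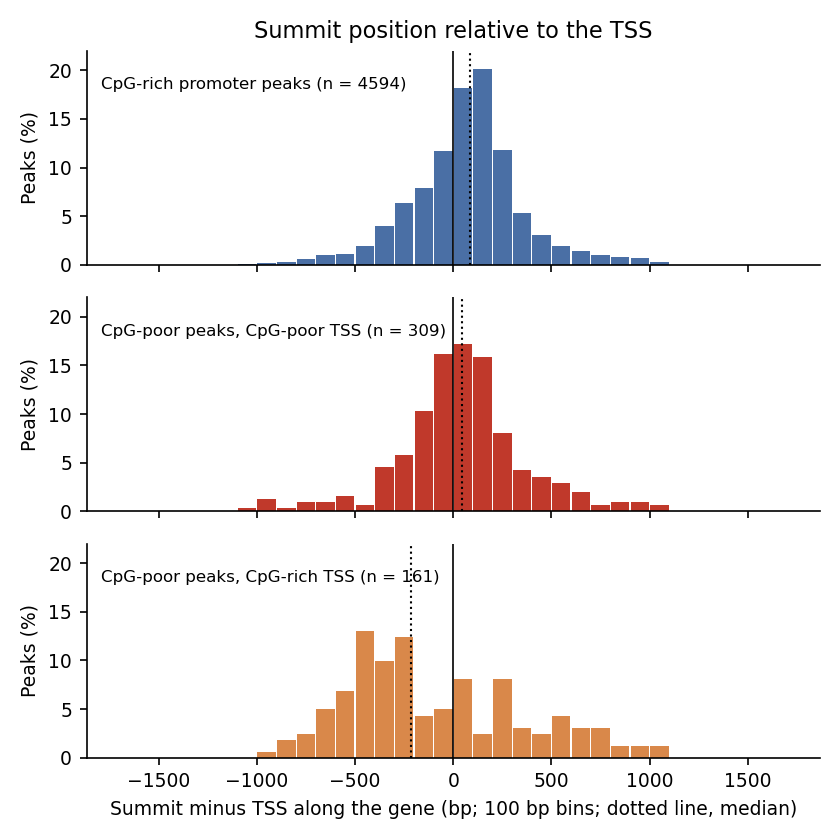
Share of peaks in percent by position of the summit relative to the TSS along the gene, in bins of 100 bp, for CpG-rich promoter peaks, CpG-poor peaks at a CpG-poor TSS and CpG-poor peaks at a CpG-rich TSS. The solid line is the TSS and the dotted lines are the medians at +83, +44 and -214 bp, and the lowest panel has its tallest bars upstream.

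The classes were set by the CpG content of the peak and of the sequence around the TSS, and the CpG ratio in 100 bp windows, pooled over peaks, describes how it ran along the sequence. In CpG-rich peaks it rose to 0.892 in the window just upstream of the summit. In CpG-poor peaks at a CpG-poor TSS it also rose towards the summit, from 0.278 between 1000 and 900 bp upstream to 0.546 just upstream, and fell to 0.379 between 500 and 600 bp downstream. In CpG-poor peaks at a CpG-rich TSS it dipped to 0.545 at the summit, between 0.634 at 500 to 400 bp upstream and 0.757 at 500 to 600 bp downstream. These values restate in part what defined the classes, at the summit through the peak and in the flanks through the window around the TSS.

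**Figure D4:**
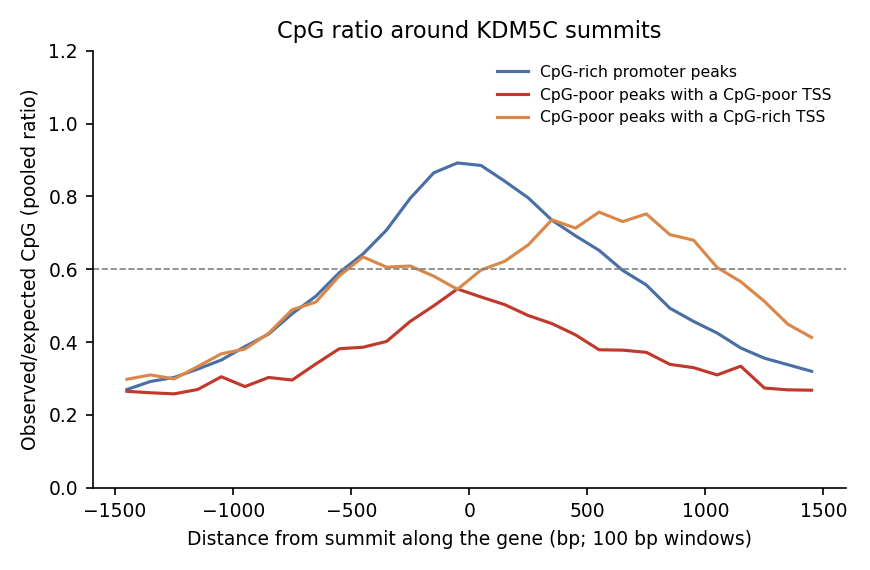
Ratio of observed to expected CpG, pooled over peaks in 100 bp windows, against distance from the summit along the gene in bp, with a dashed line at 0.6. The blue curve (CpG-rich peaks) reaches 0.892 and the red curve (CpG-poor peaks at a CpG-poor TSS) 0.546 at the summit, while the orange curve (CpG-poor peaks at a CpG-rich TSS) has a local minimum of 0.545 there.

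Another WT peak lay at the same TSS for 36 CpG-poor peaks (7.66%, 5.42 to 10.4%), and in 32 cases it was a CpG-rich one. Among CpG-rich promoter peaks the share with another WT peak at the same TSS was 4.29% (3.72 to 4.91%). Of the 36, the count was 31 among the 161 peaks at a CpG-rich TSS and 5 among the 309 at a CpG-poor TSS. Examples with a high score are Rps6ka5, a kinase that phosphorylates histone H3 (score 451, summit at -551 bp), and Trim28, the corepressor of KRAB zinc finger proteins (score 289, summit at -720 bp). The other 304 of the 309 CpG-poor peaks at a CpG-poor TSS were the only WT peak there.

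The strongest CpG-poor promoter peaks lay at genes of the germ line and at other genes. Pus7l, a pseudouridine synthase-like gene that shares its promoter region with Irak4, a kinase of Toll-like receptor signalling, had the highest score (882, fold enrichment 15.9). It was followed by Spata22, needed for meiotic recombination (859, 15.7), Tex19.1, a germ cell protein that limits transposons (837, 11.7), Mrpl23, a protein of the mitochondrial ribosome (678, 9.55), and Prr19 (635, 9.89). Syce1, a central element protein of the synaptonemal complex, reached 566, with a fold enrichment of 9.94. The next were Rnf17, a tudor domain protein of male germ cells, and Wdr81, an endosomal protein, with the same score of 555 and fold enrichment of 9.13. Piwil2, a PIWI protein that binds piRNAs, had a score of 523, and Gpat2, a mitochondrial acyltransferase, one of 456. Among these 10, the summit lay within 60 bp of the TSS for Spata22 (+47 bp), Prr19 (+1), Syce1 (-11), Rnf17 (+59), Wdr81 (+20) and Gpat2 (+18), and farthest from it for Mrpl23 (+356). Only Pus7l and Mrpl23 had a CpG-rich TSS. The 200 bp at the Tex19.1 summit have 2 copies in the genome, so that reads there can be lost to unique mapping.

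Of a list of 96 annotated germ line genes, 16 were the nearest gene of a CpG-poor promoter peak, which is 16.7% of the list. Over all 22208 protein-coding symbols on these chromosomes the share was 2.1%. The list was written with earlier results of these data known, so the count is not independent support for its direction. Seen from the peaks, list genes were 16 of 470 CpG-poor peaks (3.4%, 1.96 to 5.47%) and 41 of 4594 CpG-rich ones (0.892%). The 16 had a median score of 179 (61 to 555), against 60 (58 to 65) for the other 454 CpG-poor peaks and 381 (130 to 719) for the 41 CpG-rich peaks of list genes. Their median width was 699.5 bp against 469 bp for the others, and their median summit distance 96 bp against 229 bp. The TSS was CpG-poor for 15 of the 16, the exception being Sycp3.

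By role, the meiotic chromosome genes were Spata22, Syce1 and Sycp3, which builds the lateral elements of the synaptonemal complex (score 303, fold enrichment 7.04). The piRNA pathway was represented by Piwil2, Rnf17, the tudor domain helicases Tdrd12 (209) and Tdrd9 (171), and Piwil1 (91). Transcription factors of germ cells were Dmrtb1 (187), Sohlh2 (89) and the oocyte factor Figla (61). Testis forms of housekeeping proteins were the tubulins Tuba3a (167) and Tuba3b (20), cytochrome c (Cyct, 59) and the transketolase-like Tktl2 (37). The 5 lowest scores belonged to Sohlh2, Figla, Cyct, Tktl2 and Tuba3b.

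The share of germ line genes rose with the score, though the list was written with earlier results of these data known. The share was 2 of 171 CpG-poor peaks below a score of 50 (1.17%, 0.142 to 4.16%), 3 of 85 between 100 and 200 (3.53%) and 5 of 16 at 400 or more (31.2%, 11.0 to 58.7%). In CpG-rich peaks the corresponding shares were 0.185%, 0.55% and 5.26% (3.24 to 8.01%). All 5 were among the first 10 CpG-poor peaks, and the first 50 held 7. Some high-scoring peaks outside the list also lay at genes known from germ cells, and these were chosen after their values were seen. They were Pnldc1, which trims piRNAs (390), Hsf2bp, a meiotic recombination factor (327), Wbp2nl, a sperm protein (260), Ctcfl, the testis paralogue of CTCF (171), and Ccnb1ip1, a crossover factor (155).

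The imprinted, developmental and pluripotency lists were written in the same way. Their genes in the set had scores below 100, with the exception of Trim28. Of 47 imprinted genes, 4 were nearest to a CpG-poor peak (8.51% of the list), namely Ddc, dopa decarboxylase (92), Mest (65), Impact (64) and Trappc9 (59). Of 99 developmental factors, 3 were (3.03%), namely the ligand Bmp4 (64) and the homeobox genes Pitx1 (55) and Six2 (51). Of 41 pluripotency genes, 3 were (7.32%), namely Trim28 (289), Tcl1, a coactivator of AKT (59), and Lin28b, which blocks let-7 maturation and had 2 peaks (31 and 14). As shares of peaks, these lists made up 0.851%, 0.638% and 0.851% of CpG-poor and 0.631%, 0.805% and 0.392% of CpG-rich promoter peaks. Over all protein-coding symbols the share near a CpG-poor peak was 2.1%.

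By family of symbols, 11 CpG-poor peaks lay at Zfp zinc finger genes (2.34% of peaks, against 1.76% of CpG-rich ones) and 8 at Slc transporters (1.7% against 1.89%). Histone genes had 2, Hist1h4h (67) and Hist1h1b (41). No Rpl ribosomal protein gene and no Hox gene was among them (0 of 470, interval up to 0.782%), and these families made up 0.392% and 0.327% of CpG-rich peaks, within that interval. Of the 3 genes with names in Rps, only Rps27a (35) encodes a ribosomal protein. Of 1113 odorant receptor genes, 1 was nearest to a CpG-poor peak (Olfr658, 91), which is 0.0898%. Of 327 vomeronasal receptor genes, 0 were nearest to a CpG-poor peak. The share of all protein-coding symbols near a CpG-poor peak was 2.1%.

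On the X chromosome 5 of 74 promoter peaks were CpG-poor (6.76%). Among autosomes this share was lowest on chromosome 1 (6.23%) and highest on chromosome 10 (12.9%). The 5 were AU022751 (score 138, fold enrichment 6.1), Prps2, of nucleotide synthesis (68, 4.44), Gnl3l, a nucleolar GTPase (43, 3.65), Usp9x, a deubiquitinase (36, 3.28), and Prkx, a protein kinase (35, 3.51). Usp9x and Gnl3l had a CpG-rich TSS, with summits 470 and 367 bp upstream of it.

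The E-box CACGTG was more frequent at the summits of CpG-poor than of CpG-rich promoter peaks. The motif was searched by exact match on both strands, of which it reads the same, in the 200 bp centred on the summit. It was found in 96 of 470 CpG-poor peaks (20.4%, 16.9 to 24.4%) and in 626 of 4594 CpG-rich peaks (13.6%, 12.6 to 14.7%). Windows of 200 bp centred on all 69930 start sites of protein-coding genes held it in 4.9% of cases. Those at a CpG-poor TSS held it in 3.55% and those at a CpG-rich TSS in 6.99%. Windows of the same length 800 bp to either side of the CpG-poor summits held it in 2.23% (1.39 to 3.39%). The share was nearly equal at both kinds of TSS, 63 of 309 peaks at a CpG-poor TSS (20.4%, 16.0 to 25.3%) and 33 of 161 at a CpG-rich TSS (20.5%, 14.5 to 27.6%). For CpG-rich peaks it was 63 of 388 at a CpG-poor TSS (16.2%, 12.7 to 20.3%) and 563 of 4206 at a CpG-rich TSS (13.4%, 12.4 to 14.5%). At a CpG-poor TSS the intervals of the 2 peak classes overlapped.

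E-boxes were concentrated at the summit and were more frequent at higher scores. Per 100 CpG-poor peaks there were 6.17 matches in each of the 50 bp bins on either side of the summit and between 0.213 and 1.7 in the bins more than 500 bp away. CpG-rich peaks were concentrated too, with 3.81 and 4.42 at the summit and between 0.566 and 1.09 beyond 500 bp. By score, the share rose from 22 of 171 peaks below 50 (12.9%, 8.24 to 18.8%) through 27.1% between 100 and 200 to 13 of 32 between 200 and 400 (40.6%, 23.7 to 59.4%) and 8 of 16 at 400 or more (50%, 24.7 to 75.3%). CpG-rich peaks showed a rise too, from 7.41% to 31.6% (26.9 to 36.5%). Peaks with the motif had a median score of 87.5 (68 to 126), those without it one of 59 (54 to 64). The 8 peaks at 400 or more were those of Pus7l, Mrpl23, Wdr81, Rnf17, Adnp, Rps6ka5, Lipe and 5730469M10Rik. They included 1 of the 5 germ line genes in that band, Rnf17, and over the whole list 5 of the 16 had an E-box.

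**Figure D5:**
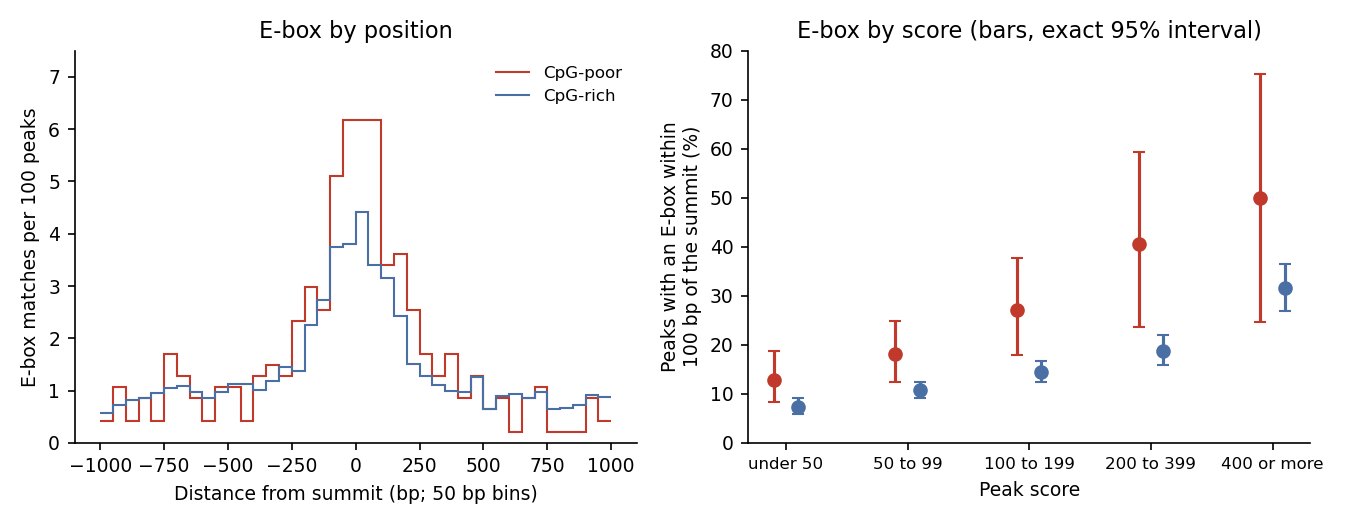
Left, E-box matches per 100 peaks in 50 bp bins against distance from the summit in bp, for 470 CpG-poor (red) and 4594 CpG-rich (blue) promoter peaks. Right, share of peaks in percent with an E-box within 100 bp of the summit by band of score, with exact 95% intervals, where the red points rise from 12.9% to 50% and the blue ones from 7.41% to 31.6%.

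Among the other motifs searched in the same windows, on both strands, GCGCATGC (the NRF1 core) was found in 22 CpG-poor peaks (4.68%, 2.96 to 7.0%), 3.2% of CpG-rich peaks and 2.1% of start sites. By class it was at 0.812% of CpG-poor and 4.1% of CpG-rich start sites, the latter above its share in CpG-rich peaks. At scores of 400 or more it was in 4 of 16 CpG-poor peaks, those of Tex19.1, Prr19, Syce1 and Gpat2 (25%, 7.27 to 52.4%), against 5% of CpG-rich peaks in that band (3.04 to 7.7%). None of these 4 had an E-box. GGCGGGAA (an E2F site) was in 15 CpG-poor peaks (3.19%, 1.8 to 5.21%), 4.09% of CpG-rich peaks and 1.69% of start sites, and in Spata22, Mrpl23 and Lipe at scores of 400 or more. By class it was at 0.711% of CpG-poor and 3.21% of CpG-rich start sites. Like the E-box, the NRF1 and E2F motifs hold a CpG. Grouping these 3 motifs was chosen after their values were seen. At least 1 of them was in 13 of the 16 CpG-poor peaks of that band (81.2%, 54.4 to 96.0%) and in 26.2% of all CpG-poor peaks. In CpG-rich peaks the shares were 157 of 380 (41.3%, 36.3 to 46.4%) and 19.9%.

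Motifs of general promoters had other distributions. GGGCGG, the GC box, was in 124 CpG-poor peaks (26.4%, 22.5 to 30.6%), fewer than in CpG-rich peaks (47.3%) and more than at CpG-poor start sites (15.2%). It consists of G and C and holds a CpG, so its share follows in part from the limits that chose the peaks. It can overlap the E2F site above, with which it shares bases. CCAAT was in 22.1% of CpG-poor peaks (18.5 to 26.2%), 12.4% of CpG-rich peaks and 23.7% of start sites, and TATAAA in 2.77%, 1.22% and 6.59%. Of the remaining 6, TGACGTCA, CCGGAAGT, AAGATGGCG, GGACAGCGC, CAGGGGGC and CACACACA, none was in more than 3.19% of CpG-poor peaks. A match is a description of the sequence only.

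The KO list held 44 peaks on assembled chromosomes, which bounds how many WT peaks can overlap one. An overlap of at least 1 bp with a KO peak was found for 6 of 470 (1.28%, 0.47 to 2.76%), against 0.622% of all WT peaks and 10 of 4594 CpG-rich promoter peaks (0.218%, 0.104 to 0.4%). The 6 lay at the predicted genes Gm10800 (score 445, fold enrichment 2.5), Gm10801 (391, 2.25), Gm10722 (161, 1.99), Gm10720 (93, 2.45), Gm10717 (33, 1.51) and Gm10106 (32, 1.69). Their GC contents were between 34% and 35.6%, and their fold enrichments were low for their scores. The 200 bp at their summits have 132, 7, 82, 156, 156 and 154 copies in the genome, in the same order. Without the peaks of more than 2 copies, a choice made after seeing the data, 0 of 459 CpG-poor promoter peaks overlapped a KO peak. Of the 10 CpG-rich promoter peaks that overlapped a KO peak, 1 had more than 2 copies. Gm4969 was among the 10, with 1 copy.

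Peaks with more than 2 copies numbered 11 in the set (2.34%, 1.17 to 4.15%), against 0.697% of CpG-rich promoter peaks. Of these, 10 were Gm-numbered genes. A run of 8 lay within 33.1 kb of chromosome 9, between bases 2999674 and 3032733, and 2 lay on chromosome 2. The median fold enrichment was 1.82 in these 11 and 3.41 in the other 459. Over the whole set, 74 peaks lay within 100 kb of another CpG-poor promoter peak, and 10 of these had more than 2 copies.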

How the data were processed

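KDM5C ChIP-Seq peaks of 1 WT and 1 KO list were used, with samples grouped by title. Per the labels and the study's methods, the authors aligned reads to mm9 with Bowtie (1.1.2 in the submitters' processing notes), kept unique reads and called peaks with MACS2 2.1.0.20140616 against input, at a q-value below 0.1. The deposited score is 10 times the −log10 q with decimals dropped. The authors also deposited a fold enrichment (ratio) of immunoprecipitate over input at the summit, the −log10 p-value (not used here), the −log10 q-value and the summit offset. The peak lists hold no read counts. The study's reporting form states only a minimum number of reads per sample, so the depth behind each list is not known exactly.

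TSSs were the 5′ ends of transcripts of protein-coding genes in GENCODE M1 on the NCBIM37 sequence (mm9). Expected CpG was the product of C and G counts divided by length. Coordinates count from 1. Copies were BLAST 2.17.0 matches of the 200 bp at the summit at 90% identity or more over at least 80% of the query. Share intervals are exact Clopper-Pearson and median intervals come from order statistics. Both take peaks as independent, which peaks in clusters are not. Python 3.11.15, NumPy 2.4.6, pandas 2.3.3, SciPy 1.17.1 and pysam 0.24.0 were used, and the calculations were tested on simulated data.

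The peaks, gene lists and motifs were chosen with earlier results of these data known. Genes were named by rule: the 10 highest scores, the 5 highest folds, widths, lowest ratios and lowest GC contents, those on X, those overlapping KO peaks, those in the lists (up to 10 each), and those at the limits. Some items that this rule or a count covers are not reported here. Other promoter distances, TSS sets, sequence windows, joined limits, a score limit and an overlap of 50% were tried as alternatives, and a limit on copies was added after seeing the data.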

Additional observations from a re-analysis of the deposited data

How the results depend on the processing

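No paired analysis was possible because the files hold a single peak list for WT and another for KO, and for the same reason no replicate could be left out. Of 78 alternative values for 11 results, 52 stayed within their intervals or, for counts, within 1.5 times, 26 moved and 0 changed sign. A promoter limit of 500 bp gave a CpG-poor share of 8.24%, a median summit distance of 167 bp and a difference from CpG-rich peaks of 15 bp. A limit of 2 kb gave 10.5%, 277 bp, a difference of 102 bp and 11 overlaps with KO peaks. With 5′ ends of genes only, the share was 8.16% and the distance 255.5 bp. Requiring both composition limits left 31 peaks (0.612%) with medians of 415 bp in width, 332 bp in distance, 53 in score and 3.21 in fold enrichment, differences of -126 bp in width and 162 bp in distance, and 0 KO overlaps. At scores of at least the WT median, 174 peaks (6.57%) had medians of 566.5 bp, 192 bp, 146.5 and 4.66, and the fold enrichment differed by -0.192. The 500 bp, 2 kb and score limits by construction admit other distances and scores, and the cause was not tested for the rest. Without peaks of more than 2 copies, chosen after seeing the data, 0 KO overlaps were left. In each alternative that gives medians, CpG-poor peaks were narrower, lower in score and fold enrichment and farther from the TSS by median. The split by class of TSS was not among these alternatives. At a CpG-poor TSS, CpG-poor and CpG-rich peaks had median widths of 489 and 453 bp and equal median distances of 162 bp. Their median scores there were 65 and 75, and their median fold enrichments 3.5 (3.35 to 3.62) and 3.53 (3.41 to 3.66). At a CpG-rich TSS the median fold enrichments were 3.23 and 3.8. The lists hold no reads, so the effect of depth on weak peaks could not be varied.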
